A study of Mus musculus with 4 samples.

Results

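The genes described here are 9 that write, maintain or remove methylation of cytosine in DNA, in neural precursor cell (NPC) cultures made from mouse embryonic stem cells (ESCs). They were taken by name, as a fixed list of the methyltransferase genes *Dnmt1*, *Dnmt3a*, *Dnmt3b* and *Dnmt3l*, the partner gene *Uhrf1*, the oxidase genes *Tet1*, *Tet2* and *Tet3* and the glycosylase gene *Tdg*, out of 55602 genes counted. All 9 passed the filter on low counts in the bulk table, and 8 had enough allelic reads for the allele comparison. The ESC line JB1 is male and a hybrid of a JF1 mother and a C57BL/6 (B6) father, and the *Zfp57*-/- line was derived from it. Both lines were kept with 3 µM of the Gsk3 inhibitor CHIR99021, moved to differentiation medium, given 1 µM cyclopamine from day 2 to day 10 and harvested at day 12. RNA of 2 wild-type and 2 *Zfp57*-/- cultures was sequenced. The inactivated gene encodes a KRAB zinc finger protein that protects methylation at imprinting control regions. Since there was 1 line of each genotype and 1 direction of the cross, genotype and line cannot be told apart, and neither can parental origin and strain.

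In mammals, DNMT3A and DNMT3B place new methyl groups on CpG dinucleotides, with the catalytically inactive DNMT3L as a stimulating partner in germ cells and ESCs. DNMT1 copies the pattern onto the new strand after replication, brought there by UHRF1, which recognises half-methylated CpGs. The TET dioxygenases oxidise 5-methylcytosine stepwise, and TDG cuts out the last oxidised forms, so that repair puts back an unmodified cytosine. ESCs are known for high *Dnmt3b*, *Dnmt3l* and *Tet1*, and neural cells for *Tet3*.

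The promoters of the 5 genes that passed the threshold between genotypes differ in how many CpGs they hold, the dinucleotide on which these enzymes act. The 250 bases before a RefSeq start (GRCm38.p6) are shown in the direction of transcription, 5′ to 3′, with every CpG in capitals. Where in each gene these cells started transcription was not measured. *Dnmt3l* has 3 RefSeq starts, of which the most upstream is shown.
Dnmt3l, chr10:78042037-78042286, plus strand: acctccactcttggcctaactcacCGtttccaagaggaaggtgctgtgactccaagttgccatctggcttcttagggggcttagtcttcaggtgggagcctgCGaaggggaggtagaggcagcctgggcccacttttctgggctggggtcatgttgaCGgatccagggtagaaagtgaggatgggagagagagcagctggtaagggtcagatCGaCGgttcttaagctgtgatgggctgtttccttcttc
Dnmt3b, chr2:153649199-153649448, plus strand: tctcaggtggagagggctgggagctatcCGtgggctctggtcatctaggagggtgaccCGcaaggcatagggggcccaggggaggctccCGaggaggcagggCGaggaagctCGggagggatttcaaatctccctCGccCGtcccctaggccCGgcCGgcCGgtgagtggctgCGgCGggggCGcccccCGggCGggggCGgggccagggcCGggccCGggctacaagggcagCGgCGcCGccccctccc
Tet1, chr10:62887325-62887574, minus strand: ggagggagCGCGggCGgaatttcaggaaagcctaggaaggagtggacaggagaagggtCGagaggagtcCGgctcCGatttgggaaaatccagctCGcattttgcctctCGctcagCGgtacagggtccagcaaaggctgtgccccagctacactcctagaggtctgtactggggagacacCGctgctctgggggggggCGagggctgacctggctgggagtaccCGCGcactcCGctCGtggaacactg
Tdg, chr10:82629588-82629837, plus strand: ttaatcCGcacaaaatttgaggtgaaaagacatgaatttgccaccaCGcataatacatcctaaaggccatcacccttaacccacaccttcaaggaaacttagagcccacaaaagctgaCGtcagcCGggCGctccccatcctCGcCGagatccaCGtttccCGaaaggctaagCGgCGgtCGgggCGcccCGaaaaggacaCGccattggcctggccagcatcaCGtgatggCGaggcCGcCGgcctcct
Tet3, chr6:83441679-83441928, minus strand: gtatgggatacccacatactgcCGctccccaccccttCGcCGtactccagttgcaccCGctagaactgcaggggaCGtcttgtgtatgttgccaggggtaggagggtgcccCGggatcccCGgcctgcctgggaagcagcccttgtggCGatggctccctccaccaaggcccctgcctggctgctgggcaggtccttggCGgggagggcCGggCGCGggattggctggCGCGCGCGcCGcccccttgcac

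The *Dnmt3l* window holds 5 CpGs, and the windows of its other starts hold 4 and 3. The *Dnmt3b*, *Tdg*, *Tet3* and *Tet1* windows hold 21, 19, 17 and 15. Over all 32851 promoter windows of this length the median was 6 CpGs. The 9 genes have 16 windows, with 2 CpGs at one start of *Dnmt1* and 51 at the start of *Tet2* as the extremes. The hexamer TGCCGC, which ZFP57 binds when it is methylated, was searched on both strands and occurred in 2 of the 16 windows (12.5%), against 8.68% of all windows. These were the *Tet3* window, from -231 to -226 relative to the start, and 1 of the *Dnmt3a* windows, which holds it from -158 to -153 and from -84 to -79 on the minus strand. Of the forms of the E2F motif only TTTCCCGC and TTTGGCGC were searched, on both strands. They occurred in 0 of the 16 windows, against 0.895% and 0.417% of all windows. Other forms of this motif were not searched, so the windows may hold them. A match describes the letters of a window and no binding was measured here.

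The libraries held between 7663520 and 10337082 counts on genes, of which 36.1% to 37% could be assigned to an allele. *Zfp57* itself had 392 and 249 counts in wild-type libraries, against 158 and 144 in the *Zfp57*-/- ones (log2 -1.19, SE 0.32, edgeR adjusted p = 0.0225). The log2 value was -0.61 without wild-type replicate 1 and -1.62 without wild-type replicate 2, and the threshold was missed without *Zfp57*-/- replicate 2 (adjusted p = 0.0719). The deletion does not span the whole gene, so a count over all its exons does not show whether the protein was lost. Of its allelic reads, 136 of 217 and 99 of 148 were maternal in wild-type libraries and 0 of 82 and 0 of 76 in the *Zfp57*-/- ones, whose pooled 95% Wilson interval reaches a share of 0.0237. The labels call all cultures neural precursor cells. All 10 pluripotency markers were higher in *Zfp57*-/- cells, their CPM values, counts scaled by effective library size, summing to 10.8 and 12 in the wild-type libraries, against 1655.9 and 1483.0 in the *Zfp57*-/- ones. The factor gene *Pou5f1* had 1 and 6 against 2747 and 2286 counts, and *Nanog* had 0 and 0 against 903 and 938. Of 10 neural markers 9 were lower, with sums of 1797.4 and 2144.6 against 324 and 307, and *Tubb3* and *Pax6* had log2 fold changes of -2.95 and -3.03. Endoderm markers passed in 0 of 7 cases by edgeR or DESeq2, and 2 had an unadjusted p under 0.05, with sums of 327 and 489 against 446 and 611. The mesoderm and endothelium list had 3 of 5 higher and 1 lower, with sums of 104 and 144 against 214 and 255. The germ cell list had 3 of 4 higher, with sums of 7.18 and 13.7 against 48.2 and 42.7. These cell type differences move with every result below, and their part in the results was not tested. In bulk RNA, fewer cells of a type and less RNA per cell cannot be told apart.

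Of the 9 genes, 5 passed an adjusted p of 0.05 between genotypes in edgeR's quasi-likelihood test, 4 of them higher and 1 lower in *Zfp57*-/- cells. Among all 19995 genes tested, 27.6% passed, 13% higher and 14.6% lower. Over the 9 genes the median log2 fold change was 0.60, and it was -0.01 over all genes. The higher genes were *Dnmt3l*, *Dnmt3b*, *Tet1* and *Tdg*, and the lower gene was *Tet3*. Positive log2 fold changes mean more RNA in *Zfp57*-/- cells, and SE is the standard error of the fit.

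*Dnmt3l* (ENSMUSG00000000730.13, chromosome 10, 78041947 to 78063622, plus strand), the gene of the inactive partner of the new-methylation enzymes, differed most. It had 2 and 8 counts in the wild-type libraries, against 1031 and 999 in the *Zfp57*-/- ones. Wild-type libraries were near the detection limit and both *Zfp57*-/- libraries far above it. The log2 fold change was 7.60 (SE 0.35, edgeR adjusted p = 1.75e-06). From the pooled reads, 10 against 2030, the ratio was 197, with a 95% exact interval for counting error from 107 to 412.

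*Dnmt3b* (ENSMUSG00000027478.15, chromosome 2, 153649450 to 153687730, plus strand) encodes the methyltransferase of the early embryo. Its counts were 196 and 324 in the wild-type libraries, against 2018 and 2449 in the *Zfp57*-/- ones. The groups did not overlap. Normalized counts were 259 ± 44.1 (SD, n = 2) and 2187.7 ± 223 (SD, n = 2), an 8.44-fold difference (log2 3.08, SE 0.22, edgeR adjusted p = 1.32e-05). The antisense gene *Dnmt3bos* had at most 4 counts in a library, and counting used the strand, per the file headers.

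*Dnmt3a* (ENSMUSG00000020661.15, chromosome 12, 3806007 to 3914443, plus strand) encodes the other active enzyme of this kind and passed the threshold in neither direction. It had 1171 and 1592 counts in the wild-type libraries, against 1088 and 1091 in the *Zfp57*-/- ones. In CPM both wild-type libraries, at 145 and 152, lay above both *Zfp57*-/- libraries, at 117 and 112. The log2 fold change of -0.38 (SE 0.18) did not pass the threshold (edgeR adjusted p = 0.152). It passed without wild-type replicate 1 (-0.44, adjusted p = 0.00334) or without wild-type replicate 2 (-0.35, adjusted p = 0.0223), when the lone library is assumed to vary like the other pair. Corrected for gene length it was 0.00 (SE 0.19).

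*Dnmt3a* and the 3 *Tet* genes are long in exons, between 15.46 and 16.87 kb. Over the 169 tested genes of 15 to 17 kb the median log2 fold change was -0.36, against 0.23 over the 2183 genes under 1 kb. A loess correction for length, made per library, brought the median of the 15 to 17 kb genes to 0.01. Values with this correction are given beside these 4 genes, and the part of length in them was not tested otherwise.

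The maintenance genes did not pass the threshold. *Dnmt1* (ENSMUSG00000004099.16, chromosome 9, 20907209 to 20959888, minus strand), the gene of the maintenance methyltransferase, had 2145 and 3858 counts in the wild-type libraries, against 3222 and 3274 in the *Zfp57*-/- ones. Both *Zfp57*-/- libraries lay between the wild-type ones, also in CPM. The log2 fold change was 0.10 (SE 0.21, edgeR adjusted p = 0.756), and it was -0.14 without wild-type replicate 1 and 0.36 without wild-type replicate 2.

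*Uhrf1* (ENSMUSG00000001228.14, chromosome 17, 56303321 to 56323486, plus strand), which encodes the recruiter of DNMT1, had 913 and 1965 counts in the wild-type libraries, against 2077 and 2397 in the *Zfp57*-/- ones. The wild-type replicate 1 was the lowest library and the other wild-type library came close to the mutants. Normalized counts were 1408.6 ± 494 (SD, n = 2) and 2192.5 ± 146 (SD, n = 2). The log2 fold change of 0.64 (SE 0.25) missed the threshold (edgeR adjusted p = 0.0819). It passed with no filter on low counts (edgeR adjusted p = 0.0222) and with a replicate block (adjusted p = 0.0083), and on the *Actb* scale it was 0.07 (adjusted p = 0.943). It was 1.05 without wild-type replicate 2 and 0.29 without wild-type replicate 1. With 1 wild-type library left, a fit does not measure how far the wild-type libraries vary. Of 12 cycling-cell markers 8 were higher in *Zfp57*-/- cells, with summed CPM of 2464.8 and 2975.3 against 3645.4 and 3603.1, and the value for the proliferation gene *Mki67* was log2 -0.48 (adjusted p = 0.0804). The part of cell cycling in the maintenance values was not tested.

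Among the genes of the TET dioxygenases, *Tet1* rose, *Tet3* fell and *Tet2* passed in neither direction. *Tet1* (ENSMUSG00000047146.17, chromosome 10, 62804570 to 62908996, minus strand) had 1154 and 1187 counts in the wild-type libraries, against 3660 and 3601 in the *Zfp57*-/- ones. The 2 groups lay far apart, at 143 and 113 CPM in the wild-type libraries against 393 and 368 in the *Zfp57*-/- ones. The difference was 2.97-fold (log2 1.57, SE 0.20, edgeR adjusted p = 4.07e-04) and was larger after the length correction (log2 1.94, SE 0.17). On a scale set by *Actb*, where all genes had a median of -0.68, its log2 fold change was 0.83 (adjusted p = 0.299).

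*Tet3* (ENSMUSG00000034832.15, chromosome 6, 83362373 to 83459084, minus strand) had 1621 and 2005 counts in the wild-type libraries, against 797 and 1016 in the *Zfp57*-/- ones. Both mutant libraries lay below both wild-type libraries. The level was 2.07-fold lower (log2 -1.05, SE 0.19, edgeR adjusted p = 0.00341). After the length correction it was -0.67 (SE 0.19, adjusted p = 0.0221), and without *Zfp57*-/- replicate 1 it was -0.91 (adjusted p = 0.129).

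*Tet2* (ENSMUSG00000040943.12, chromosome 3, 133463679 to 133545139, minus strand) had 1361 and 955 counts in the wild-type libraries, against 1225 and 1229 in the *Zfp57*-/- ones. The wild-type libraries lay on either side of the mutant ones, at 169 and 91.2 CPM against 131 and 126. The log2 fold change was -0.01 (SE 0.27, edgeR adjusted p = 0.978). It was 0.47 without wild-type replicate 1 and -0.39 without wild-type replicate 2, so that its sign rested on which wild-type library was used. With the length correction it was 0.43 (adjusted p = 0.138).

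*Tdg* (ENSMUSG00000034674.18, chromosome 10, 82629828 to 82650799, plus strand), the gene of the glycosylase that removes oxidised cytosines, had 271 and 390 counts in the wild-type libraries, against 467 and 563 in the *Zfp57*-/- ones. Both mutant libraries were higher. The difference was 1.52-fold (log2 0.60, SE 0.20, edgeR adjusted p = 0.0466) and stood close to the threshold. It missed it with DESeq2 (adjusted p = 0.082), without *Zfp57*-/- replicate 1 (0.71, adjusted p = 0.232) and without *Zfp57*-/- replicate 2 (0.51, adjusted p = 0.438), and it was -0.06 on the *Actb* scale. The pseudogene *Tdg-ps* had between 7 and 33 counts, and reads it shares with *Tdg* would have been dropped because only uniquely placed reads were kept.

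**Figure D1:**
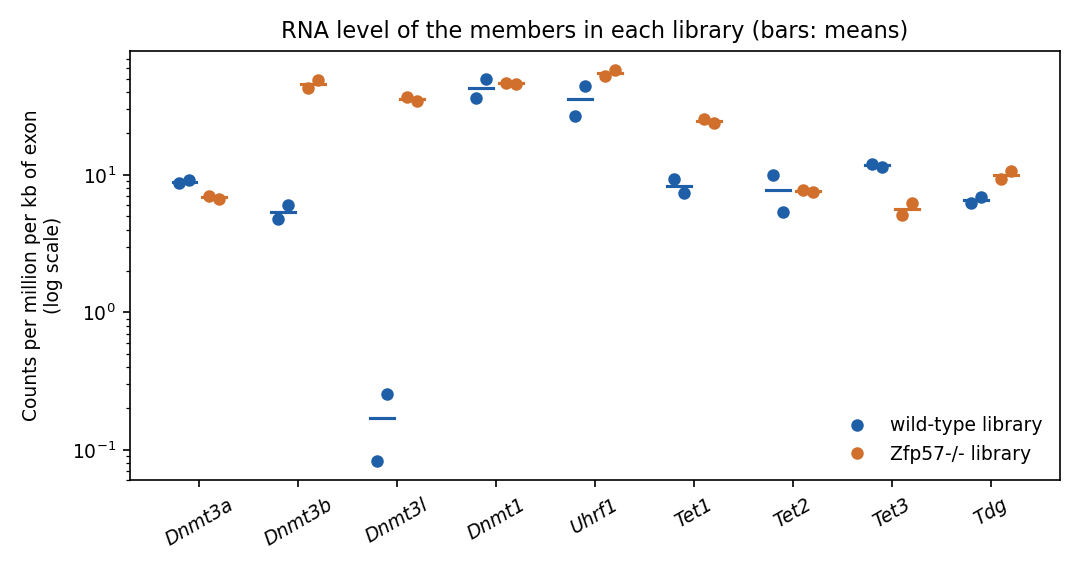
RNA level of each gene in CPM per kilobase of exon (log axis), with a point per library and a bar at the mean of 2 libraries. Wild-type and Zfp57-/- points are far apart for Dnmt3b, Dnmt3l and Tet1, while those of Dnmt1 and Tet2 overlap.

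**Figure D2:**
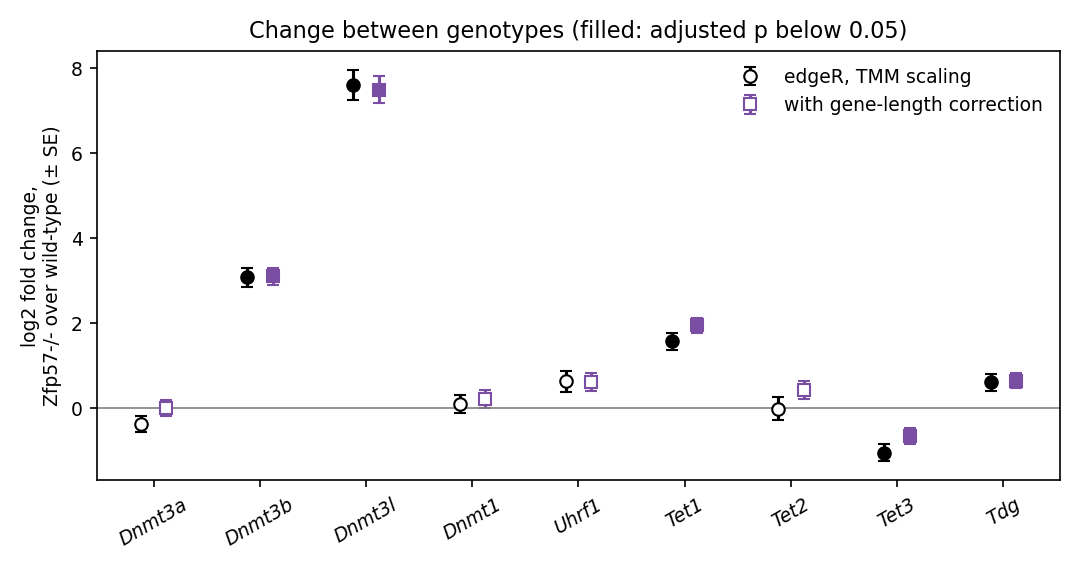
Log2 fold change of Zfp57-/- over wild-type cells with its SE, on the TMM scale (circles) and with a gene-length correction (squares), filled where the adjusted p is below 0.05. The same 5 genes are filled on both scales, and Tet1, Tet2, Tet3 and Dnmt3a shift upwards with the correction.

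Levels can be compared between genes once divided by exon length, in CPM per kilobase. In wild-type cells *Dnmt1* (42.97 ± 9.84, SD, n = 2) and *Uhrf1* (35.30 ± 12.37) were the highest and their libraries overlapped. *Tet3* (11.74 ± 0.40) stood apart below them, and *Dnmt3a* (8.92), *Tet1* (8.29), *Tet2* (7.70) and *Tdg* (6.59) followed, each overlapping its neighbour in this order. *Dnmt3b* (5.41 ± 0.92) came next, and *Dnmt3l* (0.17 ± 0.12) was the lowest.

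The order differed in *Zfp57*-/- cells. *Uhrf1* (54.94 ± 3.66) was the highest, *Dnmt1* (46.12 ± 1.07) and *Dnmt3b* (45.72 ± 4.67) overlapped, and *Dnmt3l* (35.61 ± 2.02) came after them. *Tet1* (24.61 ± 1.13) stood above *Tdg* (10.02), *Tet2* (7.62) and *Dnmt3a* (6.86), and *Tet3* (5.67 ± 0.78) was the lowest. TPM divides the same counts by the same lengths, so within a library it gives the same order and is no separate check.

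The make-up of both families differed accordingly. Of the summed length-scaled level of the 3 *Dnmt3* genes, *Dnmt3a* took 64.3% and 59.1% in the wild-type libraries, against 8.11% and 7.45% in the *Zfp57*-/- ones. *Dnmt3l* took 0.612% and 1.65% against 42.8% and 38%. The sum itself was 13.55 and 15.45 CPM per kilobase in wild-type and 86.48 and 89.90 in *Zfp57*-/- libraries. Among the *Tet* genes, *Tet3* was the largest share in both wild-type libraries (38.5% and 47.4%) and the smallest in both *Zfp57*-/- libraries (13.4% and 16.6%). *Tet1* took 29.6% and 30.3% against 66.3% and 63.5%. The *Tet* sum was 31.26 and 24.20 in wild-type and 38.33 and 37.48 in *Zfp57*-/- libraries. With 2 libraries in each group a two-sided exact permutation test cannot give a p below 0.333, and none was run on the shares.

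**Figure D3:**
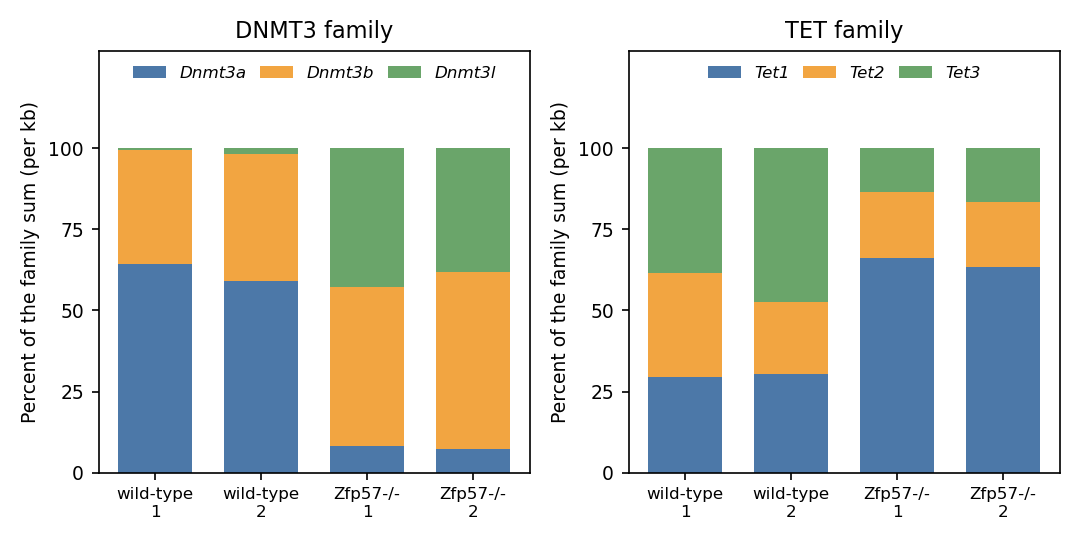
Share of each gene in the length-scaled sum of its family, in percent, with a bar per library for the DNMT3 (left) and TET (right) genes. Dnmt3a and Tet3 hold most or the largest part in the wild-type bars, and Dnmt3b with Dnmt3l, and Tet1, in the Zfp57-/- bars.

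Around these genes, 42 others of the pathway were listed by role. Of the 41 tested, 14 passed the threshold. In *Zfp57*-/- cells 10 of them were higher and 4 lower, and over the 41 the median was 0.12 on the log2 scale. This share can be read against the 27.6% of all genes. Among genes that act for or against the recruitment or stability of DNMT1, 3 of 7 tested were higher and 0 lower, with a median of 0.48. *Dppa3*, whose product keeps UHRF1 away from chromatin, had 0 counts in both wild-type and 171 and 145 in the *Zfp57*-/- libraries, at least 102-fold higher against 3 counts over the wild-type group. *Hells*, a chromatin remodeller needed for DNA methylation, had 1056 and 1508 against 2496 and 2621 counts (log2 0.96, edgeR adjusted p = 0.00414).

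The methyltransferase gene *Dnmt3c*, a rodent copy of *Dnmt3b* that acts in male germ cells, had 1 and 5 counts against 26 and 17. The pooled ratio was 6.96, with a 95% exact counting interval from 2.95 to 20, and the adjusted p was 0.031 by edgeR and 0.0526 by DESeq2. Reads it shares with *Dnmt3b* would have been dropped, which makes its count uncertain. Of 2 other family genes it was the 1 that passed.

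Of 8 TET partners, 2 were higher and 1 lower. *Cxxc4*, the neighbour of *Tet2* whose product binds TET2, fell from 361 and 311 to 40 and 90 counts (log2 -2.45, SE 0.36, adjusted p = 9.25e-04). *Gadd45b* (log2 1.48) and *Gadd45a* (log2 0.89), stress genes linked to demethylation, were higher. Among 12 repair genes, *Neil2* (log2 1.51) and *Ung* (log2 1.38) were among 3 that were higher, and the uracil glycosylase gene *Smug1* (log2 -0.72, adjusted p = 0.0468 by edgeR and 0.0896 by DESeq2) was lower.

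Of 7 readers of methylated CpG, 2 were lower and 0 higher, with a median of -0.39. *Zbtb33*, which encodes KAISO, was lower by log2 -1.01 (edgeR adjusted p = 0.00444). Among 5 genes of S-adenosylmethionine supply, *Ahcy*, whose product clears the by-product of methylation, was the 1 that passed (log2 0.80, adjusted p = 0.0251), with a value of 0.52 without wild-type replicate 1.

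Most of these named calls missed the threshold with a *Zfp57*-/- library left out, when the spread between replicates comes from the wild-type pair alone. All kept their direction. With *Zfp57*-/- replicate 1 or replicate 2 left out, the log2 fold change was 0.97 or 0.97 for *Hells*, whose SE went from 0.185 to 0.383 or 0.384. It was 2.43 or 3.11 for *Dnmt3c*, 0.63 or 1.12 for *Gadd45a* and -0.63 or -0.80 for *Smug1*. It was -0.962 or -1.045 for *Zbtb33* and 0.87 or 0.75 for *Ahcy*. Each of these missed the threshold both times. *Gadd45b* missed it without replicate 2 (log2 1.43) and *Neil2* without replicate 1 (log2 1.28). *Dppa3*, *Cxxc4* and *Ung* passed with each of the 4 libraries left out. On the *Actb* scale *Dppa3*, *Cxxc4* and *Zbtb33* passed. There *Hells*, *Dnmt3c*, *Gadd45a*, *Gadd45b*, *Neil2*, *Ung*, *Smug1* and *Ahcy* did not, with edgeR adjusted p from 0.0595 to 0.828. *Actb* itself had 1812.1 and 3595.7 CPM in the wild-type libraries, against 3764.3 and 4012.6 in the *Zfp57*-/- ones. SEs were wide on this scale, as for *Hells* with 0.528 against 0.185.

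The genes whose profiles over the 4 libraries lay nearest to a member were found by Euclidean distance of centred log2 CPM. For *Dnmt3l* these were *Klf2*, *Dppa4* and *Esrrb*, at distances of 0.73, 0.75 and 0.78 among 7158 genes of sufficient level. For *Dnmt3b* they were *Krt18* (0.14), *Tuba4a* (0.27) and *Klf9* (0.28). *Tet1* was nearest to *Fn1* (0.16), *Emb* (0.19) and *Fzd7* (0.20), and *Tet3* to *Ahcyl1* (0.08), *Sox4* (0.09) and *Tnrc18* (0.09).

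For *Tdg* the nearest genes were *Fam83h*, *Kat2a* and *Uri1*, and for *Uhrf1* they were *Nudc*, *Set* and *Clic1*. *Dnmt1* lay nearest to *Gars*, *Wdr82* and *Ppp2ca*, *Dnmt3a* to *Uhrf1bp1*, *Nlk* and *Med14*, and *Tet2* to *Fbxl5*, *Nemf* and *Luc7l3*. Distances in these 5 cases were between 0.03 and 0.11. With 4 libraries many genes share a profile, and none of the 9 genes was among the 3 nearest of another.

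Allelic reads show how much of each RNA came from the maternal JF1 and the paternal B6 copy. The allelic ratio is the maternal share, and the alleles were compared in 1 edgeR model with a term per library. In wild-type cells 4 of the 8 testable genes differed between alleles, against 23.6% of all autosomal genes tested. In *Zfp57*-/- cells 6 of 8 did, against 21.8%, but 2 of 8 by DESeq2. The allele difference itself changed between genotypes for 5 of 8, *Tdg*, *Tet2*, *Dnmt3b*, *Tet1* and *Dnmt3a*, against 14.5%. By DESeq2 it did for 3 of 8, *Tdg*, *Tet2* and *Dnmt3b*. The shares over all genes are from edgeR, so they do not serve for the DESeq2 counts. Over all genes the maternal share of reads was 53.8% and 53.9% in wild-type and 51.9% and 51.7% in *Zfp57*-/- libraries.

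*Tdg* had the largest difference of the 8. Of its allelic reads, 89 of 122 and 126 of 165 were maternal in wild-type libraries, ratios of 0.73 and 0.764. In the *Zfp57*-/- libraries 79 of 207 and 93 of 242 were, ratios of 0.382 and 0.384. The maternal allele led in both wild-type libraries and the paternal allele in both mutant libraries. The log2 maternal over paternal value was 1.57 (SE 0.22, edgeR adjusted p = 3.51e-09) in wild-type and -0.69 (SE 0.18, adjusted p = 0.00213) in *Zfp57*-/- cells, and the difference was -2.26 (SE 0.28, adjusted p = 1.65e-10).

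Taken allele by allele, the paternal *Tdg* reads rose from 4.09 and 3.72 to 13.7 and 15.2 CPM (log2 1.89, SE 0.26, edgeR adjusted p = 3.55e-05). The maternal reads were at 11 and 12 CPM in wild-type and 8.48 and 9.51 in *Zfp57*-/- libraries (log2 -0.36, SE 0.24, adjusted p = 0.309). The pseudogene *Tdg-ps* had 0 allelic reads in all 4 libraries. Among the 15 genes nearest to *Tdg* the median was 0.437 for wild-type libraries and 0.483 for the *Zfp57*-/- ones, and 2 of 14 tested changed, both towards the paternal allele. These were *Hcfc2* (0.592 to 0.441, adjusted p = 0.0327) and *Txnrd1* (0.389 to 0.319, adjusted p = 0.00456), which lie on the side after *Tdg*. On its other side *AU041133* went the opposite way (0.194 to 0.486, from 36 and 43 reads, adjusted p = 0.173), and so did *Gm47572*, which was not tested (0.0955 to 0.483, from 21 and 31 reads). By DESeq2 0 of the 15 changed, while 3 had an unadjusted p under 0.05 by edgeR.

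*Tet2*, with a bulk value near 0, changed its allelic balance. The maternal reads were 298 of 702 and 242 of 508 in wild-type, ratios of 0.425 and 0.476. In *Zfp57*-/- libraries they were 390 of 623 and 426 of 661, ratios of 0.626 and 0.644. The ratio was below 0.5 in both wild-type and above it in both mutant libraries, and the log2 difference was 1.10 (SE 0.15, edgeR adjusted p = 5.08e-09). Neither allele alone passed the threshold, with a log2 fold change of 0.51 (adjusted p = 0.228) for the maternal and -0.62 (adjusted p = 0.14) for the paternal reads. Of its 15 nearest genes 0 changed by edgeR or DESeq2, also at an unadjusted p of 0.05 by edgeR, and their median ratios were 0.495 and 0.462. Their ratio differences between genotypes ran from -0.232 to 0.213, against 0.185 for *Tet2* itself, and the farthest lay 2099.2 kb away.

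*Dnmt3b* moved the other way. Its ratio was 0.65 and 0.598 in wild-type, from 120 and 214 reads, and 0.443 and 0.435 in *Zfp57*-/- libraries, from 1345 and 1649 reads. The log2 difference was -1.04 (SE 0.19, edgeR adjusted p = 4.36e-06). Both alleles rose, the maternal by log2 2.64 (SE 0.24) and the paternal by 3.69 (SE 0.26). Of its 15 nearest genes 0 changed by either tool and 1 had an unadjusted p under 0.05 by edgeR, with median ratios of 0.482 and 0.481.

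*Dnmt3l* was not testable in wild-type cells, where 0 of 6 allelic reads were maternal. In *Zfp57*-/- libraries 245 of 627 and 251 of 593 were, ratios of 0.391 and 0.423, with a pooled 95% Wilson interval from 0.379 to 0.434. The maternal reads were at least 161-fold higher than 3 counts over the wild-type group. The paternal reads went from 6 to 724 in all, a ratio of 117 with a 95% exact interval from 53.6 to 320. Reads of both copies were thus present in the *Zfp57*-/- libraries. The intervals here cover counting error only.

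*Tet1* and *Dnmt3a* had smaller differences. The *Tet1* ratio was 0.493 and 0.491 in wild-type and 0.405 and 0.442 in *Zfp57*-/- libraries (log2 difference -0.40, SE 0.13, edgeR adjusted p = 0.0204). Both of its alleles rose, by log2 1.45 (SE 0.20) and 1.86 (SE 0.21). The *Dnmt3a* ratio was 0.464 and 0.525 against 0.581 and 0.598 (log2 difference 0.54, SE 0.19, adjusted p = 0.0431). Its paternal reads fell by 0.92 on the log2 scale (adjusted p = 0.00357), while the maternal reads gave -0.37 (adjusted p = 0.221). Of the 15 genes nearest to *Dnmt3a*, 2 changed, both in the opposite direction, among them the adjacent *Efr3b* (0.668 to 0.377, adjusted p = 4.93e-08), and their median ratios were 0.535 and 0.465. By DESeq2 1 of the 15 changed, and 5 had an unadjusted p under 0.05 by edgeR. Of the 15 genes nearest to *Tet1*, 0 changed by edgeR or DESeq2, also at an unadjusted p of 0.05 by edgeR, with median ratios of 0.499 and 0.517.

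The *Dnmt3a* and *Tet1* calls missed the threshold with some single libraries left out. Without 1 or the other wild-type library the *Tet1* difference stayed close to its value of -0.40, while its SE grew from 0.129 to 0.164. The *Dnmt3a* difference was 0.38 (adjusted p = 0.526) without wild-type replicate 1 and 0.49 (adjusted p = 0.131) without *Zfp57*-/- replicate 2. That of *Tet1* was -0.39 (adjusted p = 0.129) without wild-type replicate 1, -0.41 (adjusted p = 0.114) without wild-type replicate 2 and -0.29 (adjusted p = 0.22) without *Zfp57*-/- replicate 1. Those of *Tdg*, *Tet2* and *Dnmt3b* passed with each library left out in turn. With a replicate block in place of the library terms *Tdg* passed (adjusted p = 0.00191), while *Tet2* (adjusted p = 0.151) and *Dnmt3b* (adjusted p = 0.0586) did not. With both block and library terms, an alternative chosen after seeing the data, all 5 passed. That fit left 1 residual degree of freedom per gene.

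*Uhrf1* favoured the paternal allele in both genotypes. Its ratio was 0.374 and 0.374 in wild-type (log2 -0.74, SE 0.11, edgeR adjusted p = 7.85e-09) and 0.437 and 0.409 in *Zfp57*-/- libraries (log2 -0.45, SE 0.09, adjusted p = 4.47e-05). The difference between genotypes of 0.29 (SE 0.14) did not pass (adjusted p = 0.197). *Dnmt1*, with ratios from 0.493 to 0.522, and *Tet3*, from 0.474 to 0.529, differed between alleles in neither genotype at this threshold. Both *Tet3* alleles fell, the maternal by 0.86 (adjusted p = 0.0105) and the paternal by 1.16 (adjusted p = 9.94e-04) on the log2 scale.

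**Figure D4:**
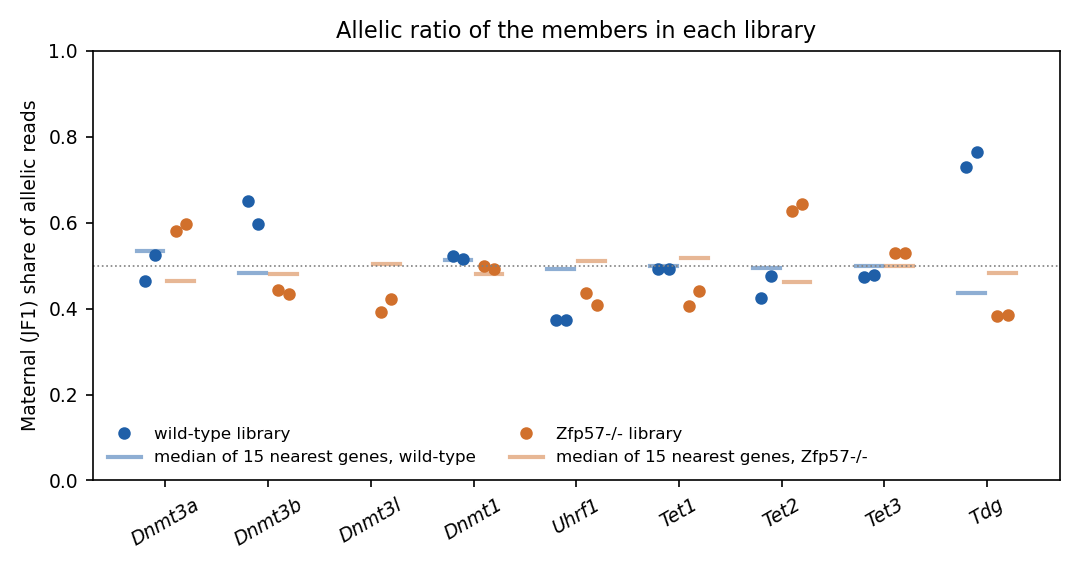
Maternal share of allelic reads with a point per library, and lines at the median of the 15 nearest genes that had 10 or more allelic reads per library. Tdg and Dnmt3b lie above 0.5 in wild-type and below it in Zfp57-/- libraries, and Tet2 the reverse (wild-type Dnmt3l, with 6 reads, is left out).

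**Figure D5:**
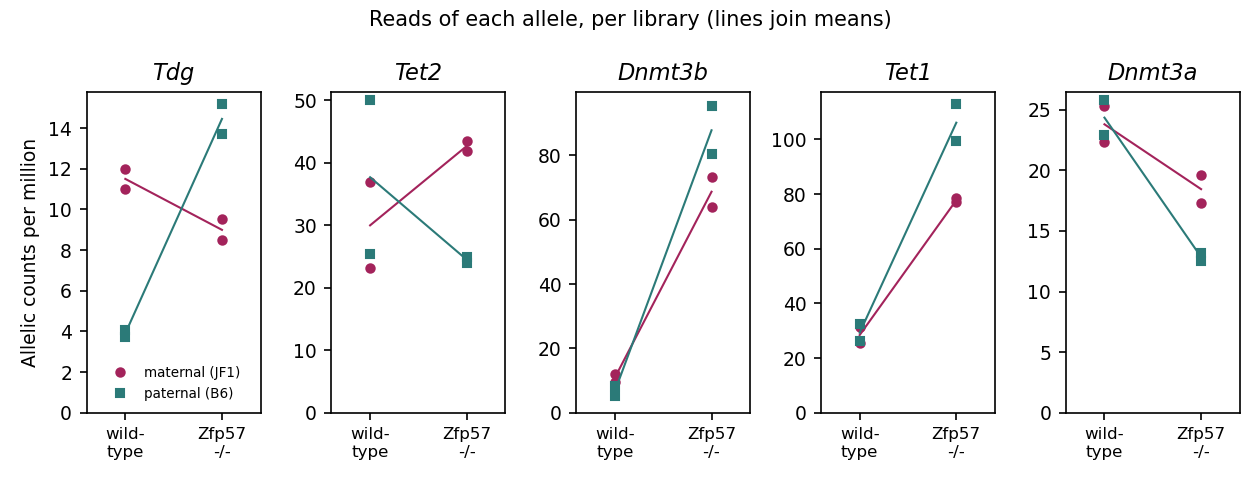
Allelic CPM of the 5 genes whose allele difference changed between genotypes, with a point per library for the maternal (circles) and paternal (squares) reads and lines joining the means. The paternal Tdg reads go from 4.09 and 3.72 to 13.7 and 15.2 while the maternal ones lie between 8.48 and 12.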

How the data were processed

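Stranded, ribosome-depleted RNA was sequenced as paired ends. Per the study's methods, the authors trimmed reads with Trimmomatic 0.36, aligned them with STAR 2.5.4a keeping uniquely placed reads, and counted fragments per gene, strand-specifically per the file headers, with featureCounts of Subread 1.6.0 (GRCm38). The deposited bulk and allele tables hold raw counts. Allelic reads were those over JF1 and B6 variants, aligned to a masked genome and sorted by allele. 1 of the 8 allele columns was entered under another unit name and holds counts as deposited.

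Symbols were matched for 54721 of 55602 gene IDs. Bulk counts were tested with edgeR 4.0.16 (TMM, robust quasi-likelihood, Benjamini-Hochberg), for genes with more than 8 counts over 4 libraries. Alleles were tested for genes on autosomes that reached 10 normalized allelic counts in each wild-type library. DESeq2 1.42.0, other scalings and filters, a length correction, a replicate block and leaving out each library were alternatives. Scripts were tested on simulated data. Promoters came from the RefSeq table (GRCm38.p6). The study names 2 biological replicates per genotype, of 1 line each. All 9 genes were named. From each pathway list the text names up to 2 genes per direction with the smallest adjusted p past the threshold. The 3 nearest profiles were sought among genes with at least 0.5 times the member's mean CPM, with a prior count of 2. Members and lists were chosen with earlier results of these data known. 1 list gene that this rule selects is not reported here.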

Additional observations from a re-analysis of the deposited data

Results flagged for a closer look

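The maternal over paternal log2 value differed between *Zfp57*-/- and wild-type cells, by edgeR's test of the difference itself, for 5 of the 8 genes tested, against 14.5% of all autosomal genes. The difference was -2.26 for *Tdg* (adjusted p = 1.65e-10), 1.10 for *Tet2* (adjusted p = 5.08e-09) and -1.04 for *Dnmt3b* (adjusted p = 4.36e-06), and the leading allele was the other one in the mutant cells for these 3 genes. It was -0.40 for *Tet1* (adjusted p = 0.0204) and 0.54 for *Dnmt3a* (adjusted p = 0.0431), which missed the threshold when single libraries were left out. Ratios of nearby genes stand beside these values in the results, and no explanation was tested.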

How the results depend on the processing

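Of 108 values of the 9 bulk fold changes under alternatives, 89 kept direction and side of the threshold, 5 lost it, 7 gained it and 7 changed sign. With *Actb* as the scale, 3 of 9 members and 6 of 41 list genes passed, and *Dnmt1* and *Tdg* turned to -0.51 and -0.057. On it all genes had a median of -0.68 and 14% of calls were higher, against 47.2%. *Actb* itself differed between the wild-type libraries, at 1812.1 and 3595.7 CPM. *Tet2* turned to 0.43 with the length correction and to 0.051 with the replicate block. Leaving out a library gave 3 to 9 members and 5 to 27 list genes, *Dnmt1* between -0.14 and 0.36 and *Tet2* between -0.39 and 0.47; 3 members passed without *Zfp57*-/- replicate 1 and 9 without wild-type replicate 2. Where a library was left out, the pair of the other genotype alone set the spread between replicates. Over all genes tested, too, more passed without wild-type replicate 2 and fewer without *Zfp57*-/- replicate 1 than with all libraries kept. The counts of members and list genes thus moved in the same direction as those over all genes, and their change is not particular to them. At an adjusted p of 0.01, and with a log2 change of at least 1, 4 passed.

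The genotype-by-allele contrast passed for 3 of 8 with DESeq2, for 3 to 4 with a library left out, and for 1, *Tdg*, with a replicate block in place of the library terms. With both block and library terms, an alternative chosen after seeing the data that left 1 residual degree of freedom per gene, it passed for 5. DESeq2 gave 2 of 8 for the allele difference in *Zfp57*-/- cells. Same-numbered libraries deviated together with r = 0.152 over 11736 genes in 2 pairs. No label gives them a shared culture or day, and 2 pairs do not settle whether the numbers pair them. The replicate block gave 6 members in bulk and 17 list genes.

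The length correction was corrected once after its first result, which counted the library scale again and left a trend of the opposite sign. Allelic ratios of *Tdg* rest on 122 to 242 reads a library. The causes of these shifts were not tested.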
